A study of Sus scrofa with 45 samples.

Results

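Transcripts of 3 cytosolic RNA sensors, DDX58 (RIG-I), IFIH1 (MDA5) and EIF2AK2 (PKR), were measured in the blood of miniature pigs fed lipid-rich diets. The 3 genes were chosen by name as the sensors of RNA in the cytosol, and every probe whose annotation named one of them was taken. This gave 6 probes of the 43603 on the array, with 2 for DDX58, 3 for IFIH1 and 1 for EIF2AK2. The animals were male specific pathogen-free Clawn miniature pigs, 5 per diet, that received a control diet, a diet rich in fat and cholesterol (HFCD) or a diet rich in fat, cholesterol and sucrose (HFCSD) from 12 weeks of age. Whole blood (WB) was taken into PAXgene tubes after 10, 19 and 27 weeks of feeding, at 22, 31 and 39 weeks of age. White blood cells (WBC) were caught from blood with the LeukoLock kit at 27 weeks. Of the 12 groups, 9 held 4 arrays and 3 held 3 (WB HFCSD after 19 weeks, and both lipid-rich diets in WB after 27 weeks), which made 45 one-colour arrays. The questions addressed were how each diet, the added sucrose, the length of feeding and the separation of white cells went with the level of the sensors.

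RIG-I and MDA5 are helicases that recognize RNA of viral type in the cytosol, RIG-I by uncapped triphosphate ends and MDA5 by long duplexes, and both signal through the mitochondrial adaptor MAVS to the interferon genes. PKR is a kinase that is switched on by duplex RNA, phosphorylates the translation factor eIF2 alpha and slows protein synthesis. In leukocytes the genes of all of these sensors are themselves induced by type I interferon.

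Levels are given as log2 intensity after quantile normalization over the 45 arrays, and a difference of 1 is a 2-fold difference. The scanner software called 35.4 to 53.3% of the spots of an array well above background, with a median of 43.9%. The number of arrays, 3 or 4 per group, limits the precision. The labels number the males of a group but do not say whether a number stands for the same pig at another week, and p-values here measure the spread between these samples. With 5 pigs per diet and 3 or 4 males per group, the groups of a diet must share pigs between weeks and sample types. The main fits treated all arrays as independent. In comparisons between weeks or sample types, p-values and intervals therefore leave the repeated pigs out of account. From these arrays of blood RNA alone, fewer cells of a type and less RNA per cell cannot be told apart.

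The labelled sample types were checked against marker lists. T cell markers were named for 6 of 6 genes, monocyte markers for 3 of 5, platelet markers for 3 of 5, NK cell markers for 2 of 5, B cell markers for 1 of 5, plasmacytoid dendritic cell markers for 1 of 4 (IRF7), erythroid markers for 1 of 6 (HBA) and neutrophil markers for 0 of 5. The HBA probe was well above background on 1 of 45 arrays, so that red cells and neutrophils had no usable marker among the genes of these lists. IRF7 also stands in the lists of MAVS signalling and of interferon-induced genes below. It therefore does not mark plasmacytoid dendritic cells apart from those lists. At 27 weeks in the control diet the mean of the T cell probes was 7.31 (SD 0.30) in WB and 8.25 (SD 0.34) in WBC, that of the monocyte probes 8.48 (SD 0.55) and 9.67 (SD 0.34), and that of the NK cell probes 7.26 (SD 0.14) and 9.08 (SD 0.28). Platelet probes averaged 12.01 to 12.57 on the WB control arrays at 27 weeks. In WBC they averaged 13.44, 13.51 and 13.60 on control replicates 2, 3 and 4 but 8.64 on replicate 1, and 11.67 to 13.27 on HFCD replicates 1, 3 and 4 but 7.56 on replicate 2. These 2 arrays were also the highest of their groups for 5 of 6 and 6 of 6 sensor probes. In WB, platelet probes averaged 8.83 and 8.70 on HFCD replicates 1 and 4 at 19 weeks, beside 11.81 and 12.13 on the others, and 9.40 on HFCSD replicate 3 at 27 weeks, beside 12.46 and 11.78. HFCSD replicate 2 in WB at 19 weeks was at 10.38 beside 11.78 and 11.89 and was the highest of its group for 5 of 6 sensor probes. In WBC, HFCSD replicates 3 and 4 were at 11.12 and 10.47, beside 13.25 and 12.95 on replicates 1 and 2. Of these, replicates 2, 3 and 4 were the highest for 2 of 6 each and replicate 1 was the lowest for 6 of 6. Of the WB arrays below 10, HFCD replicate 1 was the highest of its group for 5 of 6 sensor probes and HFCSD replicate 3 for 4 of 6, while HFCD replicate 4 was the lowest for 3 of 6.

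Between WBC and WB of the control, HFCD and HFCSD diets, 43.8, 46.1 and 59.1% of all probes passed an adjusted p of 0.05 in limma. Of the T cell probes 7 of 10, 5 of 10 and 9 of 11 passed and were higher in WBC, of the monocyte probes 3 of 8, 2 of 7 and 3 of 7, and of the NK cell probes 2 of 2 each. The B cell probe (0 of 1) and the platelet probes (0 of 3) did not pass in any diet, and of the IRF7 probes 0 of 2 were higher and 1 was lower, in HFCSD. In HFCD minus control no marker probe passed an adjusted 0.05. The median difference of the platelet probes was -0.84, -1.75 and -0.86 in WB at 10, 19 and 27 weeks and -1.02 in WBC, with 3 of 3 lower at an unadjusted 0.05 at 10 weeks. That of the T cell probes was 0.12, 0.65, -0.02 and 0.22, with 4 of 9 higher unadjusted at 19 weeks. In HFCSD minus control the medians were -0.19, -0.55, -1.29 and -0.41 for platelets and -0.03, 0.65, 0.01 and 0.26 for T cells, with 1 of 3 platelet probes lower unadjusted in WB at 27 weeks and 4 of 9 T cell probes higher at 19 weeks, 1 of 8 in WB at 27 weeks and 1 of 11 in WBC. In the same order of samples the medians in HFCD were 0.43, -0.48, 0.46 and 0.27 for monocytes, 0.40, 0.91, 0.04 and 0.18 for NK cells, -0.57, 0.29, -0.09 and -0.29 for the B cell probe and 0.55, 0.33, 1.24 and 1.32 for IRF7, of whose 2 probes 1, 0, 1 and 2 were higher unadjusted. In HFCSD they were 0.13, -0.19, 0.035 and -0.02 for monocytes, with 1 of 6 lower unadjusted at 19 weeks and 1 of 8 in WBC, -0.002, 1.14, -0.66 and -0.20 for NK cells, with 1 of 1 lower at 27 weeks, -0.22, 0.84, -0.001 and 0.22 for the B cell probe, and 0.23, 0.03, 1.57 and 0.84 for IRF7, with 2 of 2 higher unadjusted and 1 of 2 adjusted in WB at 27 weeks and 1 of 2 unadjusted in WBC. Beside these counts, 10.0, 12.5, 5.55 and 4.73% of all probes passed an unadjusted 0.05 in HFCD, in the same order of samples. In HFCSD 1.73, 11.9, 32.2 and 11.3% did, and 10.6% passed an adjusted 0.05 in WB at 27 weeks. The part of these markers in the levels of the sensors was not tested.

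The probes are named below by gene and by the first base they cover in the annotated transcript, DDX58_3504 and DDX58_3964, IFIH1_539, IFIH1_2130 and IFIH1_3012, and EIF2AK2_1839. Each spans 60 bases. The IFIH1 probes are shown because they read 3 separate stretches of 1 transcript and differed in how many arrays measured them.
IFIH1_539: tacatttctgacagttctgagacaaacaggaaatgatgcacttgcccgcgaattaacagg
IFIH1_2130: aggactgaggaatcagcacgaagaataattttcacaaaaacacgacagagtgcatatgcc
IFIH1_3012: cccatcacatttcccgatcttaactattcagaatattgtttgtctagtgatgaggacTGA
The capitals mark the stop codon, at which the last of the 3 probes ends. DDX58_3504 was well above background on 42 of 45 arrays, DDX58_3964 on 42, IFIH1_539 on 43, IFIH1_2130 on 38, and IFIH1_3012 and EIF2AK2_1839 on 45. On 1 array, control replicate 3 in WB at 10 weeks, the software had replaced the signal of IFIH1_2130 by its estimate of the noise.

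Within the control groups, replicate 4 had the lowest value of its group for 0 of 6 probes in WB at 10 weeks, 6 of 6 at 19 weeks, 4 of 6 at 27 weeks and 6 of 6 in WBC at 27 weeks. This array was singled out after its values were seen, so in the comparisons of each diet with control the differences without it are given beside those with it. Scan day also divided 1 set of groups. At 19 weeks, control replicate 1 was scanned on the same day as the HFCD and HFCSD arrays, and control replicates 2, 3 and 4 on another day. Control replicate 1 was the highest control array of that week for 6 of 6 probes. At 10 weeks, at 27 weeks in WB and at 27 weeks in WBC, all arrays were scanned on 1 day each.

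DDX58 encodes the sensor RIG-I. At 10 weeks in WB, the log2 intensity of DDX58_3504 was 5.61, 3.76, 4.89 and 5.31 in the control arrays, 6.84, 5.16, 5.83 and 6.0 in the HFCD arrays and 5.14, 5.01, 5.54 and 5.28 in the HFCSD arrays. DDX58_3504 measured 5.71, 4.25, 4.84 and 3.25 in control, 7.56, 5.81, 6.45 and 5.55 in HFCD and 5.81, 6.53 and 5.21 in HFCSD in WB at 19 weeks. The values of the 3 diets overlapped at both weeks, and the lowest array at each week was a control array. The WB values of DDX58_3504 at 27 weeks were 5.23, 4.49, 5.50 and 2.5 in control, 5.50, 5.64 and 6.30 in HFCD and 4.89, 5.80 and 5.46 in HFCSD. In the WBC arrays DDX58_3504 was at 7.68, 6.16, 6.85 and 4.12 in control, 7.17, 8.30, 7.13 and 6.79 in HFCD and 5.72, 7.41, 7.36 and 6.53 in HFCSD. Control replicate 4 lay lowest of its group in both sample types at 27 weeks, and again the diets overlapped. The group means at 27 weeks were 4.43 (SD 1.36) in control, 5.81 (SD 0.43) in HFCD and 5.38 (SD 0.46) in HFCSD in WB, and 6.20 (SD 1.52) in control, 7.35 (SD 0.66) in HFCD and 6.76 (SD 0.80) in HFCSD in WBC.

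The other DDX58 probe lies further along the transcript. At 10 weeks in WB, the log2 intensity of DDX58_3964 was 4.93, 3.13, 4.40 and 4.44 in the control arrays, 6.53, 4.75, 5.66 and 5.68 in the HFCD arrays and 4.24, 4.73, 4.66 and 4.91 in the HFCSD arrays. DDX58_3964 measured 6.27, 4.37, 5.43 and 3.55 in control, 7.66, 5.73, 6.51 and 5.64 in HFCD and 5.81, 6.17 and 5.56 in HFCSD in WB at 19 weeks. HFCD replicate 1 was the highest array at both weeks, and the diets overlapped. The WB values of DDX58_3964 at 27 weeks were 5.81, 4.93, 5.44 and 5.13 in control, 5.97, 6.04 and 6.73 in HFCD and 4.49, 5.88 and 6.40 in HFCSD. In the WBC arrays DDX58_3964 was at 7.42, 5.97, 6.68 and 4.98 in control, 7.21, 8.32, 7.51 and 6.97 in HFCD and 6.07, 6.99, 7.42 and 6.77 in HFCSD. In WB at 27 weeks the 3 HFCD arrays lay above all 4 control arrays, whereas HFCSD replicate 1 lay below them, and in WBC the diets overlapped. Across the 45 arrays the deviations of the DDX58 probes from the mean of their sample type and week had r = 0.888 and Spearman's rho = 0.898.

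IFIH1 encodes the sensor MDA5. At 10 weeks in WB, the log2 intensity of IFIH1_539 was 6.66, 6.11, 4.98 and 6.06 in the control arrays, 7.72, 6.51, 7.26 and 6.76 in the HFCD arrays and 6.55, 7.17, 6.67 and 6.38 in the HFCSD arrays. IFIH1_539 measured 6.34, 5.62, 6.08 and 4.83 in control, 6.89, 6.86, 7.77 and 6.29 in HFCD and 7.20, 7.49 and 5.19 in HFCSD in WB at 19 weeks. At 10 weeks control replicate 3 and at 19 weeks control replicate 4 were the lowest arrays, and the diets overlapped at both. The WB values of IFIH1_539 at 27 weeks were 6.19, 6.65, 6.34 and 4.46 in control, 7.04, 6.91 and 7.58 in HFCD and 6.79, 6.93 and 7.09 in HFCSD. In the WBC arrays IFIH1_539 was at 7.98, 6.72, 7.44 and 5.96 in control, 7.40, 8.84, 7.56 and 7.38 in HFCD and 7.03, 7.40, 7.76 and 7.78 in HFCSD. In WB at 27 weeks the arrays of both lipid-rich diets lay above all 4 control arrays, of which replicate 4 was the lowest. In WBC the highest array was HFCD replicate 2 and the diets overlapped.

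The middle IFIH1 probe was measured well above background on the fewest arrays. At 10 weeks in WB, the log2 intensity of IFIH1_2130 was 4.86, 4.43, 2.32 and 4.30 in the control arrays, 6.13, 5.56, 5.37 and 5.28 in the HFCD arrays and 4.13, 5.11, 5.06 and 4.94 in the HFCSD arrays. IFIH1_2130 measured 5.04, 3.94, 4.36 and 3.66 in control, 6.63, 4.61, 6.32 and 4.98 in HFCD and 5.62, 5.82 and 4.63 in HFCSD in WB at 19 weeks. At 10 weeks the 4 HFCD arrays lay above the control and the HFCSD arrays, and at 19 weeks the diets overlapped. The WB values of IFIH1_2130 at 27 weeks were 5.16, 4.61, 4.80 and 4.55 in control, 5.84, 5.66 and 7.20 in HFCD and 5.46, 4.82 and 5.73 in HFCSD. In the WBC arrays IFIH1_2130 was at 6.37, 5.64, 6.41 and 4.25 in control, 6.41, 7.94, 6.67 and 5.83 in HFCD and 6.20, 6.23, 6.41 and 6.48 in HFCSD. At 27 weeks in WB the HFCD arrays lay above all control arrays, and in WBC the diets overlapped.

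At 10 weeks in WB, the log2 intensity of IFIH1_3012 was 8.43, 7.70, 8.19 and 8.0 in the control arrays, 9.54, 8.35, 8.91 and 8.74 in the HFCD arrays and 8.34, 8.53, 8.62 and 8.43 in the HFCSD arrays. IFIH1_3012 measured 9.32, 8.81, 9.06 and 8.17 in control, 11.17, 8.91, 9.78 and 9.31 in HFCD and 9.42, 9.76 and 9.60 in HFCSD in WB at 19 weeks. This probe at the end of the coding sequence overlapped between diets at 10 weeks, and at 19 weeks the 3 HFCSD arrays lay above all control arrays while HFCD reached from 8.91 to 11.17. The WB values of IFIH1_3012 at 27 weeks were 9.48, 8.31, 8.89 and 8.59 in control, 9.27, 9.48 and 9.82 in HFCD and 8.57, 9.27 and 9.13 in HFCSD. In the WBC arrays IFIH1_3012 was at 10.62, 9.40, 10.03 and 8.58 in control, 9.99, 11.75, 10.38 and 9.87 in HFCD and 9.28, 10.25, 10.23 and 9.96 in HFCSD. The diets overlapped in both sample types at 27 weeks, and control replicate 1 was higher than the lowest array of either lipid-rich diet. Between the IFIH1 probes, deviations over the 45 arrays had r = 0.83 for IFIH1_539 with IFIH1_2130, 0.786 for IFIH1_2130 with IFIH1_3012 and 0.677 for IFIH1_539 with IFIH1_3012, with rho of 0.813, 0.771 and 0.715.

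EIF2AK2 encodes the kinase PKR and had a single probe, well above background on every array. At 10 weeks in WB, the log2 intensity of EIF2AK2_1839 was 8.75, 8.79, 8.95 and 9.10 in the control arrays, 10.41, 8.98, 9.75 and 9.42 in the HFCD arrays and 9.13, 9.68, 9.19 and 9.06 in the HFCSD arrays. EIF2AK2_1839 measured 9.94, 9.01, 8.97 and 8.14 in control, 11.26, 9.32, 9.90 and 9.66 in HFCD and 9.82, 9.79 and 9.61 in HFCSD in WB at 19 weeks. HFCD replicate 1 was the highest array at both weeks, and the diets overlapped. The WB values of EIF2AK2_1839 at 27 weeks were 9.97, 9.43, 9.31 and 8.37 in control, 9.74, 9.54 and 10.03 in HFCD and 9.28, 9.67 and 9.70 in HFCSD. In the WBC arrays EIF2AK2_1839 was at 10.19, 8.73, 9.27 and 8.69 in control, 9.37, 10.93, 9.92 and 9.65 in HFCD and 9.61, 9.62, 10.00 and 9.61 in HFCSD. Control replicate 4 was the lowest array in both sample types, control replicate 1 lay within the range of HFCD and above that of HFCSD, and the diets overlapped.

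**Figure D1:**
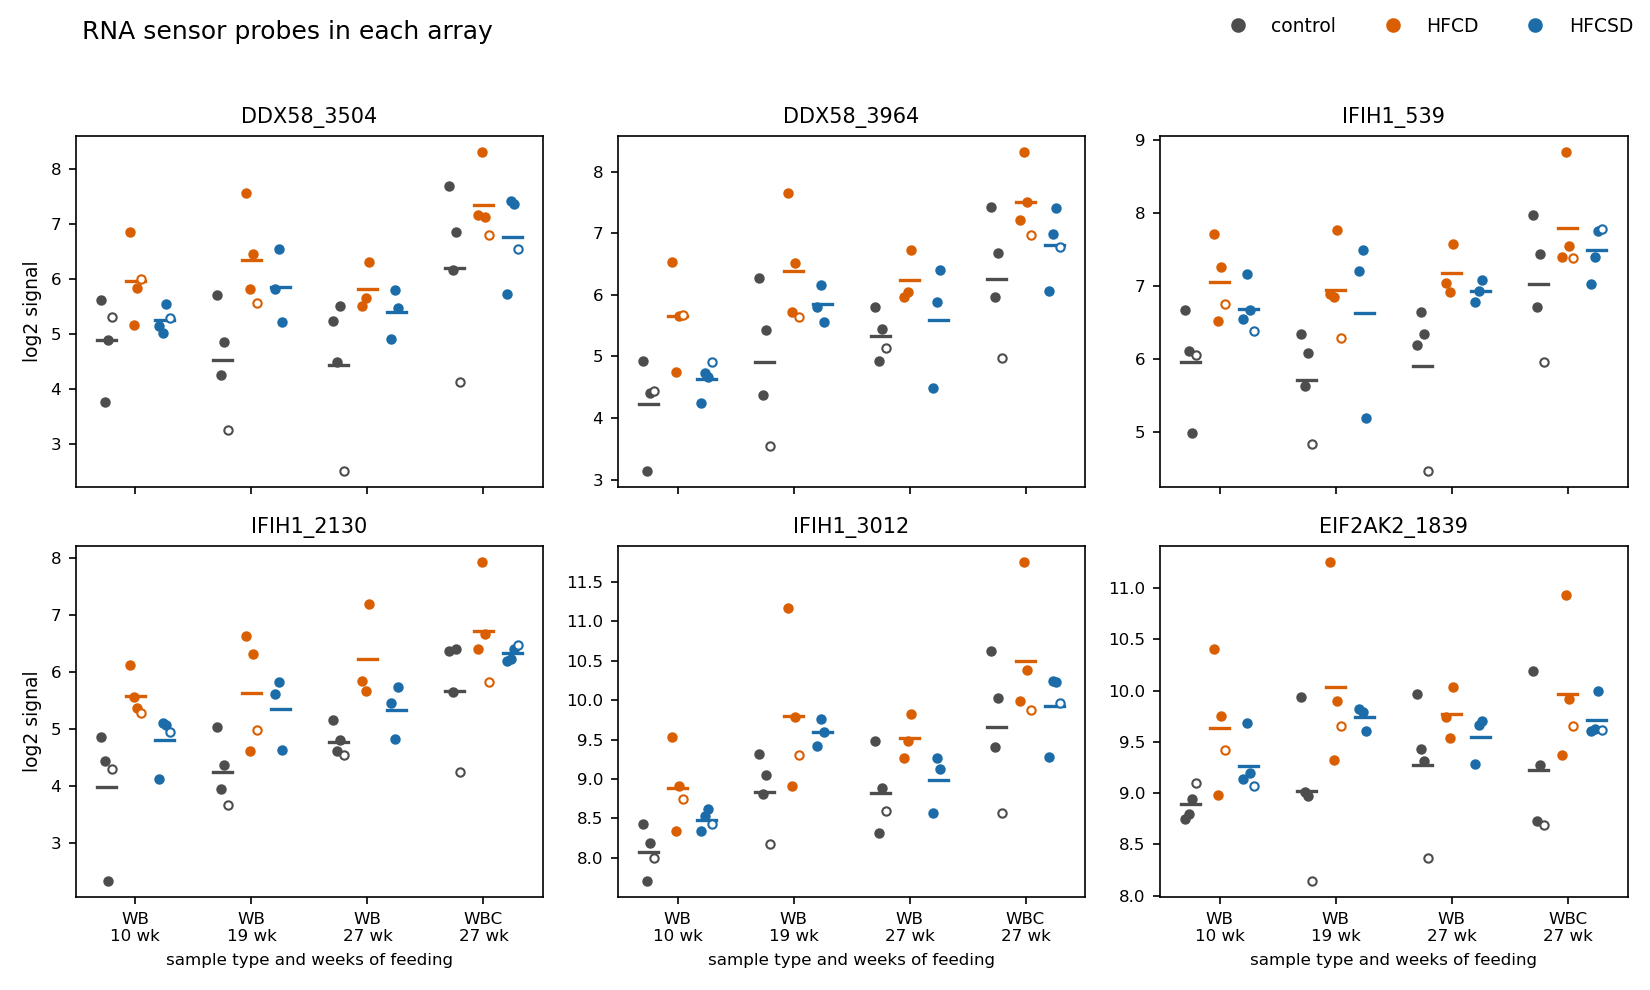
Log2 intensity (vertical axis) of the 6 RNA sensor probes in each array, by sample type and weeks of feeding (horizontal axis) and diet (colour). Bars mark group means and open points replicate 4; in the WB control groups at 19 and 27 weeks and in the WBC control group, replicate 4 lies at or near the bottom.

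Ordered by mean, the 12 groups ran from WBC HFCD at 27 weeks at the top to a WB control group at the bottom for the probes of DDX58 and IFIH1. DDX58_3504 ran from 7.35 down to 4.43 (WB control at 27 weeks), DDX58_3964 from 7.50 to 4.23 (WB control at 10 weeks), IFIH1_539 from 7.79 to 5.72 (WB control at 19 weeks), IFIH1_2130 from 6.71 to 3.98 and IFIH1_3012 down to 8.08 (both WB control at 10 weeks). EIF2AK2_1839 ran from 10.03 in WB HFCD at 19 weeks to 8.90 in WB control at 10 weeks. Of the 66 steps between neighbours in these orders, 4 exceeded the larger SD of the pair. They were the steps from WBC HFCD to WBC HFCSD for DDX58_3964 (0.69 against an SD of 0.59), from WB HFCSD at 27 weeks to WB HFCSD at 10 weeks for IFIH1_2130 (0.53 against 0.47), and for IFIH1_3012 from WB HFCD to WB HFCSD at 27 weeks (0.53 against 0.37) and from HFCSD to control in WB at 10 weeks (0.40 against 0.31). All other neighbours differed by no more than their spread.

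HFCD was compared with control within each week and sample type by limma, and the comparisons of both diets at a week share the same control arrays. In WB at 10 weeks, the differences in log2 intensity, HFCD minus control, with 95% confidence intervals were 1.06 (0.20 to 1.93) for DDX58_3504, 1.43 (0.56 to 2.30) for DDX58_3964, 1.11 (0.34 to 1.87) for IFIH1_539, 1.61 (0.60 to 2.61) for IFIH1_2130, 0.80 (0.28 to 1.32) for IFIH1_3012 and 0.74 (0.16 to 1.32) for EIF2AK2_1839. None passed an adjusted p of 0.05 in limma (0 of 6 probes, against 0.0281% of 17767 probes tested), with adjusted p from 0.293 to 0.420 and 4 of 4 HFCD arrays above the control mean for each probe. The share of all probes with every array above the control mean was not determined, here or in the comparisons below. The values of IFIH1_2130 did not overlap between the groups, and the share of all probes without overlap was not determined either. At an unadjusted p under 0.05 the count was 6 of 6, against 10.0% of the probes tested. The median difference of the 6 probes was 1.09 and that of all probes 0.09. Without control replicate 4 the differences ran from 0.77 to 1.71, and 6 of 6 passed an unadjusted 0.05, against 9.89%. HFCD replicate 1 was the highest of its group for 6 of 6 probes. With any 1 array left out, EIF2AK2_1839 ran from 0.49 to 0.96, DDX58_3504 from 0.69 to 1.33 and IFIH1_2130 from 1.05 to 1.90. Of the 6 probes, 4 entered the test through HFCD alone, where they were high: of the 4 control arrays, DDX58_3504, DDX58_3964 and IFIH1_2130 were well above background on 2 and IFIH1_539 on 3, and the control mean of IFIH1_2130 includes the noise estimate of 2.32.

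In WB at 19 weeks the differences, HFCD minus control, were 1.83 (0.60 to 3.05) for DDX58_3504, 1.48 (0.21 to 2.75) for DDX58_3964, 1.24 (0.09 to 2.38) for IFIH1_539, 1.39 (0.32 to 2.46) for IFIH1_2130, 0.95 (-0.00 to 1.91) for IFIH1_3012 and 1.02 (0.05 to 1.98) for EIF2AK2_1839. In limma 0 of 6 passed an adjusted p of 0.05, against 0.0181% of 16615 probes, with adjusted p from 0.229 to 0.402, and 5 of 6 passed an unadjusted 0.05, against 12.5%. Of these 5, IFIH1_2130 was well above background on 3 of 4 control arrays and entered through HFCD alone, where it was high. Each probe was above the control mean in 4 of 4 HFCD arrays. Within the scan day that control replicate 1 shares with the HFCD arrays, the differences were 0.63 and 0.12 for DDX58_3504 and DDX58_3964, 0.61, 0.60 and 0.47 for IFIH1_539, IFIH1_2130 and IFIH1_3012, and 0.09 for EIF2AK2_1839. There, 0 of 6 passed an unadjusted 0.05, against 905 of 18425 probes, with 1 control array assumed to vary as the others do. Without control replicate 4 the differences ran from 0.73 to 1.41, and 2 of 6 passed an unadjusted 0.05, against 7.78%. Without HFCD replicate 1, the highest of its group for 5 of 6 probes, they ran from 0.49 for IFIH1_3012 to 1.42, with 0.61 for EIF2AK2_1839, and 2 of 6 passed, against 17.4%.

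In WB at 27 weeks the differences, HFCD minus control, were 1.38 (0.03 to 2.74) for DDX58_3504, 0.92 (-0.02 to 1.86) for DDX58_3964, 1.27 (0.27 to 2.27) for IFIH1_539, 1.46 (0.62 to 2.30) for IFIH1_2130, 0.70 (0.03 to 1.38) for IFIH1_3012 and 0.50 (-0.25 to 1.25) for EIF2AK2_1839. By limma 0 of 6 passed an adjusted p of 0.05, against 0.0165% of 18188 probes, with adjusted p from 0.893 to 0.970, and 4 of 6 passed an unadjusted 0.05, against 5.55%. Each probe was above the control mean in 3 of 3 HFCD arrays. The groups did not overlap for DDX58_3964, IFIH1_539 and IFIH1_2130, and the share of all probes without overlap was not determined. Without control replicate 4, 2 of 6 passed an unadjusted 0.05, against 7.79% of probes, and the differences ran from 0.20 for EIF2AK2_1839 to 1.38 for IFIH1_2130. DDX58_3504, whose control replicate 4 was lowest, moved from 1.38 to 0.74. Of the 4 probes past an unadjusted 0.05 with all arrays, DDX58_3504, IFIH1_539 and IFIH1_2130 were well above background on 3 of 4 control arrays and entered the test through HFCD alone, where they were high.

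In WBC at 27 weeks the differences, HFCD minus control, were 1.15 (-0.29 to 2.58) for DDX58_3504, 1.24 (0.19 to 2.29) for DDX58_3964, 0.77 (-0.17 to 1.71) for IFIH1_539, 1.05 (-0.02 to 2.12) for IFIH1_2130, 0.84 (-0.20 to 1.88) for IFIH1_3012 and 0.75 (-0.06 to 1.55) for EIF2AK2_1839. In limma 0 of 6 passed an adjusted p of 0.05, against 0.0276% of 18126 probes, with adjusted p from 0.991 to 0.997, and 1 of 6 (DDX58_3964) passed an unadjusted 0.05, against 4.73%. All groups overlapped, and each probe was above the control mean in 4 of 4 HFCD arrays. IFIH1_2130 was well above background on 3 of 4 control arrays and entered the test through HFCD alone, where it was high. Without control replicate 4 the differences ran from 0.41 to 0.81 and 0 of 6 passed an unadjusted 0.05, against 5.17%. Without HFCD replicate 2, the highest of its group for 6 of 6 probes, they ran from 0.42 to 0.97, with 0.42 for IFIH1_3012 and 0.43 for EIF2AK2_1839, and 0 of 6 passed, against 3.46%. With any 1 array left out, the count past an unadjusted 0.05 in HFCD minus control was 4 to 6 in WB at 10 weeks, 2 to 6 at 19, 1 to 6 at 27 and 0 to 6 in WBC, and the lowest differences were 0.49, 0.49, 0.20 and 0.41. The share of all probes is given only for the fits named above, so these ranges show only how far single arrays moved the counts.

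**Figure D2:**
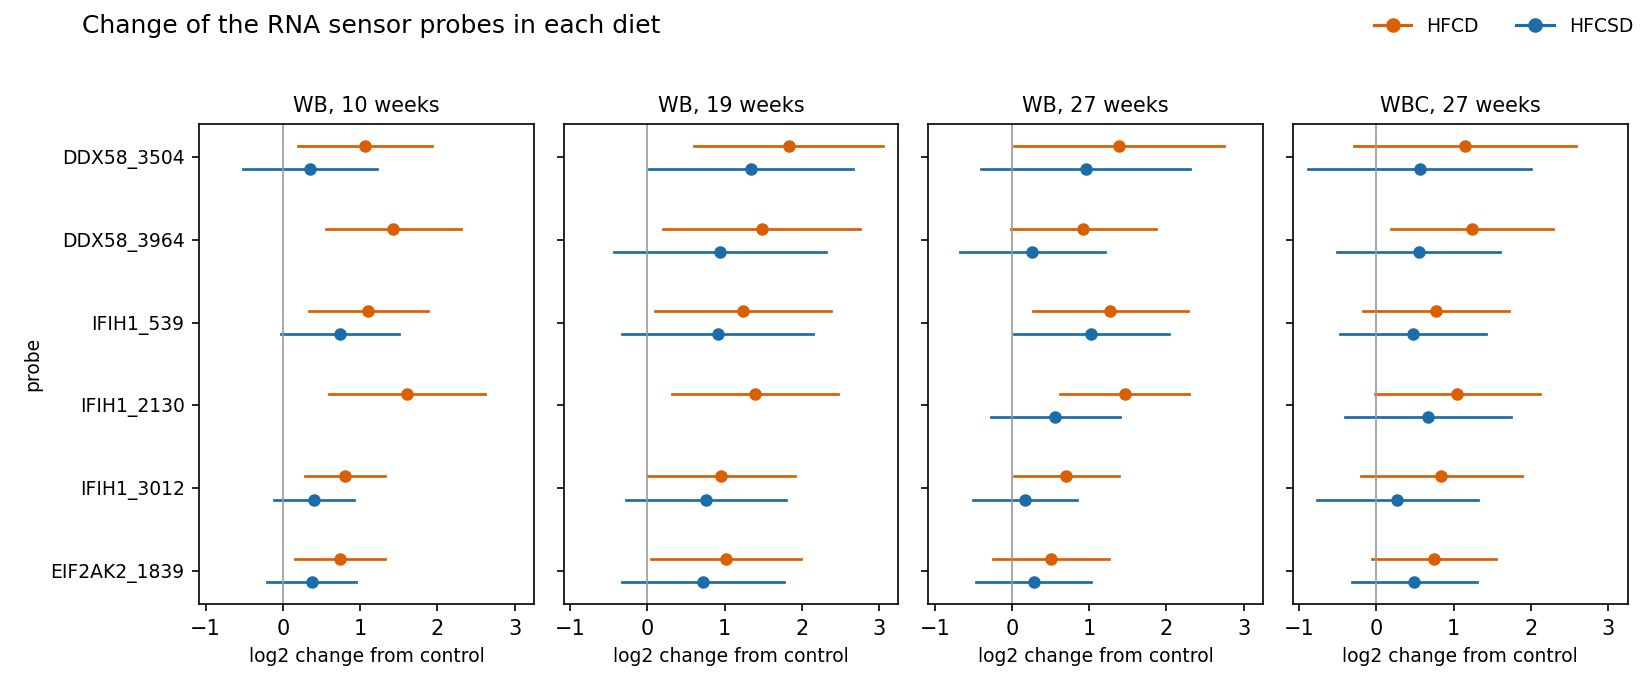
Difference in log2 intensity from control (horizontal axis; points, with lines for the 95% confidence interval) of each RNA sensor probe (vertical axis) in HFCD and HFCSD, by sample type and weeks of feeding. No probe passed an adjusted p of 0.05, and a missing point marks a probe that was not tested.

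For HFCSD in WB at 10 weeks, DDX58_3964 and IFIH1_2130 were not tested, since each was well above background on 2 of 4 control and 3 of 4 HFCSD arrays. The differences of the others, HFCSD minus control, were 0.35 (-0.51 to 1.22) for DDX58_3504, 0.74 (-0.03 to 1.5) for IFIH1_539, 0.40 (-0.12 to 0.92) for IFIH1_3012 and 0.37 (-0.21 to 0.95) for EIF2AK2_1839. By limma 0 of 4 passed an adjusted p of 0.05, against 0.0123% of 16198 probes, each with an adjusted p of 1 and 4 of 4 HFCSD arrays above the control mean, and 0 of 4 passed an unadjusted 0.05, against 1.73%. DDX58_3504 and IFIH1_539 were well above background on 2 and 3 of 4 control arrays and entered the test through HFCSD alone, where they were high. Leaving out control replicate 4, the differences were 0.49, 0.77, 0.37 and 0.44 in the same order, and 0 of 4 passed an unadjusted 0.05, against 2.46%. With any 1 array left out, DDX58_3504 ran from -0.023 to 0.59, and with normexp background correction it was -0.0008.

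In WB at 19 weeks IFIH1_2130 was not tested, being well above background on 3 of 4 control and 2 of 3 HFCSD arrays. The differences, HFCSD minus control, were 1.34 (0.02 to 2.66) for DDX58_3504, 0.94 (-0.44 to 2.32) for DDX58_3964, 0.91 (-0.32 to 2.15) for IFIH1_539, 0.75 (-0.28 to 1.79) for IFIH1_3012 and 0.72 (-0.32 to 1.77) for EIF2AK2_1839. In limma 0 of 5 passed an adjusted p of 0.05, against 0.0175% of 17178 probes, with adjusted p from 0.418 to 0.554, and 1 of 5 (DDX58_3504) passed an unadjusted 0.05, against 11.9%. The 3 HFCSD arrays were above the control mean for every probe tested except IFIH1_539, with 2 of 3. Within the scan day of control replicate 1 the sign turned for DDX58_3964, at -0.42, and for EIF2AK2_1839, at -0.20, and the differences were 0.14, 0.29 and 0.27 for DDX58_3504, IFIH1_539 and IFIH1_3012. IFIH1_2130 also entered this fit, in which the control group was 1 array, and the median difference of the 6 probes was 0.21. The differences without control replicate 4 were 0.92 and 0.49 for DDX58_3504 and DDX58_3964, 0.61 and 0.53 for IFIH1_539 and IFIH1_3012, and 0.43 for EIF2AK2_1839, and 0 of 5 passed an unadjusted 0.05, against 7.73%. With any 1 array left out, IFIH1_539 ran from 0.48 to 1.63.

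In WB at 27 weeks the differences, HFCSD minus control, were 0.96 (-0.40 to 2.31) for DDX58_3504, 0.26 (-0.67 to 1.20) for DDX58_3964, 1.03 (0.03 to 2.03) for IFIH1_539, 0.56 (-0.27 to 1.40) for IFIH1_2130, 0.17 (-0.50 to 0.84) for IFIH1_3012 and 0.28 (-0.47 to 1.02) for EIF2AK2_1839. By limma 0 of 6 passed an adjusted p of 0.05, against 10.6% of 17135 probes, with adjusted p from 0.146 to 0.713, and 1 of 6 (IFIH1_539) passed an unadjusted 0.05, against 32.2%. IFIH1_539, DDX58_3504 and IFIH1_2130 were well above background on 3 of 4 control arrays and entered the test through HFCSD alone, where they were high. All 3 HFCSD arrays were above the control mean for each probe except DDX58_3964 and IFIH1_3012, with 2 of 3. The median difference was 0.42 for the sensors and -0.21 for all probes. Without control replicate 4 the difference of EIF2AK2_1839 was -0.02, those of the others ran up to 0.54 for IFIH1_539, and 0 of 6 passed an unadjusted 0.05, against 34.5%. With any 1 array left out, DDX58_3964 ran from -0.14 to 0.81 and IFIH1_3012 from 0.003 to 0.39.

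In WBC at 27 weeks the differences, HFCSD minus control, were 0.56 (-0.89 to 2.00) for DDX58_3504, 0.55 (-0.50 to 1.6) for DDX58_3964, 0.47 (-0.48 to 1.42) for IFIH1_539, 0.66 (-0.41 to 1.74) for IFIH1_2130, 0.27 (-0.78 to 1.32) for IFIH1_3012 and 0.49 (-0.32 to 1.3) for EIF2AK2_1839. In limma 0 of 6 passed an adjusted p of 0.05, against 0.0366% of 19105 probes, with adjusted p from 0.647 to 0.875, and 0 of 6 passed an unadjusted 0.05, against 11.3%. The HFCSD arrays above the control mean numbered 4 of 4 for IFIH1_539, IFIH1_2130 and EIF2AK2_1839 and 3 of 4 for the other probes. IFIH1_2130 was well above background on 3 of 4 control arrays and entered the test through HFCSD alone, where it was high. Without control replicate 4 the differences of DDX58_3504 and IFIH1_3012 were -0.14 and -0.09, those of the others ran up to 0.31, and 0 of 6 passed an unadjusted 0.05, against 11.5%. With any 1 array left out, the count in HFCSD minus control was 0 or 1 in WB at 10 weeks, 0 to 3 at 19, and 0 or 1 at 27 and in WBC. Here too the share of all probes is given only for the fits named above.

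The added sucrose was compared as HFCSD minus HFCD. In WB at 10 weeks the differences of the 6 probes ran from -1.02 to -0.37, with a median of -0.56. By limma 0 of 6 passed an adjusted p of 0.05 (0% of 17917 probes did) and 1 of 6, DDX58_3964, an unadjusted 0.05 (4.95%). That probe was well above background on 3 of 4 HFCSD arrays and entered the test through HFCD alone, where it was high, as did IFIH1_2130. In WB at 19 weeks they ran from -0.54 to -0.20, and 0 of 6 passed the adjusted (0% of 16277 probes) and 0 the unadjusted threshold (1.55%) in limma. In WB at 27 weeks they ran from -0.90 to -0.22, and limma gave 0 of 6 at the adjusted threshold (0.0111% of 18005 probes) and 0 at the unadjusted one (12.5%). In WBC they ran from -0.69 to -0.26, and limma gave 0 of 6 at the adjusted threshold (0% of 18799 probes) and 0 at the unadjusted one (2.17%). In WB at 19 weeks IFIH1_2130 was well above background on 2 of 3 HFCSD arrays and entered the test through HFCD alone, where it was high. In WB at 10, 19 and 27 weeks and in WBC the medians of the 6 probes were -0.56, -0.31, -0.48 and -0.48. Those of all probes were -0.10, 0.09, -0.15 and -0.004, and the share of all probes that were lower was not determined. Deviations of the 6 probes had pairwise r of 0.68 to 0.91, so they are not independent of each other. The mean of HFCSD was below that of HFCD for 6 of 6 probes in each of these 4 comparisons, none of which passed the test. In WB at 19 weeks and in WBC this order rested on single arrays. Without HFCD replicate 1 in WB at 19 weeks the differences ran from -0.35 to 0.26, with IFIH1_2130, IFIH1_3012 and EIF2AK2_1839 higher in HFCSD, and without HFCSD replicate 3 IFIH1_539 and IFIH1_2130 were higher (-0.40 to 0.39). Without HFCD replicate 2 in WBC the differences ran from -0.42 to 0.06, with IFIH1_539, IFIH1_2130 and EIF2AK2_1839 higher in HFCSD. With the percentage of bright spots per array as a covariate, an alternative chosen after seeing the data, the median in WB at 27 weeks turned from -0.48 to 0.06.

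Whether the difference between diet and control itself differed between sample types or weeks was tested over all 45 arrays, with pigs shared between groups left out of account. For HFCD, the difference in WBC minus that in WB at 27 weeks ran from -0.50 to 0.32 over the 6 probes, with 0 of 6 past an adjusted p of 0.05 in limma (0% of 20072 probes) and 0 past an unadjusted 0.05 (0.648%). For HFCSD it ran from -0.56 to 0.29, with 0 of 6 adjusted (0.00981% of 20379 probes) and 0 unadjusted (16.2%). For the difference at 27 weeks minus that at 10 weeks in WB, HFCD gave -0.51 to 0.32, with 0 of 6 adjusted (0% of 19141 probes) and 0 unadjusted (3.57%). HFCSD gave -0.27 to 0.60, with 0 of 6 adjusted (0.0168% of 17898 probes) and 0 unadjusted (16.2%). The medians over the probes were -0.05, 0.10, -0.12 and -0.12 in this order.

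White blood cells were set against whole blood at 27 weeks. The 2 sample types were prepared with different kits and scanned on different days, so sample type, kit and scan day cannot be told apart. Within a diet they share pigs, which the fit left out of account. In the control diet the differences, WBC minus WB, were 1.77 (0.54 to 3.01) for DDX58_3504, 0.94 (-0.10 to 1.98) for DDX58_3964, 1.12 (0.16 to 2.07) for IFIH1_539, 0.84 (0.03 to 1.65) for IFIH1_3012 and -0.05 (-0.81 to 0.71) for EIF2AK2_1839. DDX58_3504 passed (adjusted p 0.0176 in limma, 3 of 4 WBC arrays above the WB mean), which made 1 of 5 probes tested, against 43.8% of 19022 probes, and 3 of 5 passed an unadjusted 0.05, against 51.1%. Other settings gave 1 to 3 calls among the sensors, and leaving out 1 array 0 to 5. Over all probes these gave 7913 to 9637 and 6986 to 8764 calls. IFIH1_2130 was not tested, being well above background on 3 of 4 arrays in either group. The call of DDX58_3504 was lost without WB control replicate 4 (1.13, adjusted p 0.142), without WBC control replicate 1 (1.28, adjusted p 0.099) and without WBC control replicate 3 (1.55, adjusted p 0.063). With normexp background correction the difference was 0.70 (adjusted p 0.0457). DDX58_3504 and IFIH1_539 were well above background on 3 of 4 WB and 4 of 4 WBC arrays, so that both entered the test through WBC alone, where they were high. The groups overlapped for each of the 5 probes.

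In HFCD the differences, WBC minus WB, were 1.53 (0.20 to 2.87) for DDX58_3504, 1.26 (0.13 to 2.38) for DDX58_3964, 0.61 (-0.42 to 1.65) for IFIH1_539, 0.48 (-0.60 to 1.56) for IFIH1_2130, 0.98 (0.10 to 1.85) for IFIH1_3012 and 0.20 (-0.63 to 1.02) for EIF2AK2_1839. In limma 0 of 6 passed an adjusted p of 0.05, against 46.1% of 19414 probes, with the lowest adjusted p at 0.0542 for DDX58_3504, and 3 of 6 an unadjusted 0.05, against 53.6%. Other settings gave 0 to 3 calls among the sensors, and leaving out 1 array 0 to 3. Over all probes these gave 8581 to 10931 and 6599 to 8786 calls. The WBC arrays lay above all WB arrays for DDX58_3504, DDX58_3964 and IFIH1_3012, and 2 of 4 lay above the WB mean for EIF2AK2_1839. In HFCSD the differences were 1.37 (0.04 to 2.71) for DDX58_3504, 1.22 (0.10 to 2.35) for DDX58_3964, 0.56 (-0.48 to 1.59) for IFIH1_539, 0.99 (-0.09 to 2.08) for IFIH1_2130, 0.94 (0.06 to 1.81) for IFIH1_3012 and 0.16 (-0.66 to 0.98) for EIF2AK2_1839. There 0 of 6 passed an adjusted p of 0.05 in limma, against 59.1% of 19689 probes, with the lowest adjusted p at 0.0565 for DDX58_3964, and 3 of 6 an unadjusted 0.05, against 63.6%. Other settings gave 0 to 2 calls among the sensors, and leaving out 1 array 0 to 3. Over all probes these gave 7798 to 13660 and 8953 to 11444 calls. The WBC arrays of HFCSD lay above all its WB arrays for IFIH1_2130 and IFIH1_3012. In neither diet was the share of all probes without overlap determined. The median over all probes was 0.17 in control, 0.19 in HFCD and 0.42 in HFCSD, and scaling to the 75th percentile moved it to 0.30, 0.38 and 0.50. The medians of the sensors were 0.94, 0.80 and 0.97, and 1.08, 1.06 and 1.01 with the 75th percentile.

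The length of feeding was compared in WB as 27 minus 10 weeks, 2 sets of arrays scanned on different days, so that week, age and scan day cannot be told apart. Within a diet the 2 sets share pigs, which the fit left out of account. In control 3 probes were tested, with differences of 1.1 for DDX58_3964, 0.74 for IFIH1_3012 and 0.37 for EIF2AK2_1839. By limma 0 of 3 passed an adjusted p of 0.05 (22.2% of 17140 probes did) and 1 of 3, DDX58_3964, an unadjusted 0.05 (35.8%). This probe was well above background on 2 of 4 arrays at 10 weeks and entered through the arrays at 27 weeks, where it was high. In HFCD the differences ran from -0.14 to 0.65, with 0 of 6 adjusted (6.36% of 18862 probes) and 0 unadjusted (21%) in limma. In HFCSD they ran from 0.14 to 0.95, with 0 of 6 adjusted (11.2% of 16461 probes) and 0 unadjusted (26.9%) in limma. DDX58_3964, with the 0.95, and IFIH1_2130 were well above background on 3 of 4 HFCSD arrays at 10 weeks. Both entered the test through the arrays at 27 weeks, where they were high.

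Partners of the sensors were taken from a list of 41 genes around RIG-I, MDA5 and MAVS, of which 23 were named on the array. In HFCD minus control the list had 0 probes past an adjusted p of 0.05 in limma in any sample type and week, and at an unadjusted 0.05 it had 6 of 34 probes higher in WB at 10 weeks, 3 of 29 at 19 weeks, 3 of 30 at 27 weeks and 6 of 34 in WBC, with none lower. Of all probes 10.0, 12.5, 5.55 and 4.73% passed the unadjusted threshold in these comparisons, in either direction. In HFCSD minus control it had 2 of 29 probes higher in WB at 27 weeks, MAVS and IRF7, where 1161 of all 17135 probes were higher, and 0 elsewhere. The unadjusted counts in HFCSD were 2 of 30, 2 of 28, 6 of 29 and 6 of 35 higher, with 1 lower in WB at 27 weeks, against 1.73, 11.9, 32.2 and 11.3% of all probes in either direction. MAVS, the adaptor of both helicases, was at 5.52, 5.66, 5.51 and 7.29 in the control arrays and 9.0, 8.68 and 8.05 in the HFCSD arrays of WB at 27 weeks. All HFCSD arrays were above all control arrays (difference 2.58, adjusted p 0.0492 in limma), while 2 other MAVS probes differed by 1.02 and 0.19 (adjusted p 0.178 and 0.571). Under 12 other settings the difference of the called MAVS probe ran from 0.97 to 3.02, and 7 of them kept the call. IRF7, a transcription factor of the interferon genes, was at 10.95, 10.82, 11.16 and 12.51 in control and 13.89, 13.26 and 13.36 in HFCSD. It was higher in 3 of 3 arrays (2.14, adjusted p 0.0310), with 1.00 (adjusted p 0.101) for its other probe. Under 12 other settings the difference of the called IRF7 probe ran from 0.88 to 2.53, and 9 of them kept the call.

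The list around PKR, eIF2 and the integrated stress response named 6 of 24 genes on the array, with 3 or 4 probes tested per comparison. It had 0 probes past an adjusted 0.05 in the 8 comparisons with control in limma, against 10.6% of all probes in HFCSD in WB at 27 weeks and 0.0123 to 0.0366% in the other 7. Unadjusted, 1 probe was higher in each HFCD comparison (1 of 4, 1 of 3, 1 of 3 and 1 of 4, against 10.0, 12.5, 5.55 and 4.73% of all probes) and 2 of 3 in HFCSD at 10 weeks (against 1.73%), with 0 of 4, 0 of 3 and 0 of 4 in HFCSD in WB at 19 and 27 weeks and in WBC (against 11.9, 32.2 and 11.3%). ADAR, an enzyme that edits duplex RNA, had the largest statistic, with 5.49, 5.78, 5.32 and 5.54 in control and 7.48, 6.55, 6.75 and 6.35 in HFCD in WB at 10 weeks. The groups did not overlap (1.25, 4 of 4 arrays above the control mean, adjusted p 0.221). EIF2AK3, another kinase of eIF2, differed by 0.55 in HFCSD in WB at 10 weeks (4 of 4 arrays above the control mean, adjusted p 1).

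Interferon ligands, receptors and JAK-STAT genes were named for 14 of 24 genes. In HFCD minus control 0 probes passed an adjusted 0.05 in limma, and unadjusted 10 of 23, 5 of 23, 6 of 22 and 4 of 24 were higher in WB at 10, 19 and 27 weeks and in WBC, with 1 lower at 19 weeks, against 10.0, 12.5, 5.55 and 4.73% of all probes in either direction. In HFCSD minus control 2 of 22 probes were higher in WB at 27 weeks, where 10.6% of all probes passed, and 0 elsewhere. Unadjusted, 1 of 22, 2 of 23, 5 of 22 and 4 of 25 were higher and 0, 1, 0 and 2 lower, against 1.73, 11.9, 32.2 and 11.3% of all probes. IRF9, part of the factor that interferon receptors switch on, was 7.67, 7.62, 7.81 and 8.01 in control and 9.02, 9.04 and 8.98 in HFCSD in WB at 27 weeks. The groups did not overlap, and the difference was 1.23 (adjusted p 0.0372 in limma, 3 of 3 arrays above the control mean). The other IRF9 probes differed by 0.47 and 0.71, neither past an adjusted 0.05. Under 12 other settings the difference of the called IRF9 probe ran from 0.74 to 1.31, and 10 of them kept the call.

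Interferon-induced genes, the class to which the sensors belong, were named for 25 of 49 genes. In HFCD minus control their median difference was 0.86, 0.73 and 0.99 in WB at 10, 19 and 27 weeks and 0.79 in WBC, beside 0.09, -0.03, -0.03 and 0.02 for all probes tested. By limma 0 probes passed an adjusted 0.05, and unadjusted 25 of 40, 20 of 40, 22 of 39 and 23 of 41 were higher and 0 lower, against 10.0, 12.5, 5.55 and 4.73% of all probes in either direction. In HFCSD minus control the medians were 0.25, 0.48, 0.58 and 0.54, with 6 of 38 probes higher at an adjusted 0.05 in WB at 27 weeks, where 10.6% of all probes passed, and 0 elsewhere in limma. Unadjusted, 5 of 39, 14 of 39, 13 of 38 and 13 of 41 were higher and 1 lower, in WBC, against 1.73, 11.9, 32.2 and 11.3% of all probes. The probes higher in WB at 27 weeks included those of IRF7 and IRF9 above, 2 of LGALS9 (1.92 and 2.03, adjusted p 0.0362 and 0.0314) and 1 of ISG20 (1.58, adjusted p 0.0471), each higher in 3 of 3 arrays. Of 12 other settings, 8 kept the call for each LGALS9 probe and 5 for ISG20.

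These calls in WB at 27 weeks depended on single arrays. The 6 calls numbered 2, 0 and 0 without control replicates 1, 2 and 3, and 0, 0 and 3 without HFCSD replicates 1, 2 and 3, and the 2 calls of the MAVS list numbered 0 without each of these arrays except HFCSD replicate 3, where 1 was left. The 2 calls among the JAK-STAT genes numbered 0 without any 1 of these 6 arrays. The 3 counts without control replicate 4 were 5, 3 and 2. Over all probes the count in this comparison was 1824, and it was 95, 217, 159 and 2833 without control replicates 1 to 4, and 104 and 118 without HFCSD replicates 1 and 2, while without HFCSD replicate 3 it stayed within 1.5 times of the full count. Spots well above background made up 39.6, 38.8 and 39.7% in the HFCSD arrays and 50.2, 49.4, 46.5 and 38.9% in the control arrays. With this share as a covariate, an alternative chosen after seeing the data, 0 probes passed in this comparison.

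Other DEAD and DExH box helicases, relatives of RIG-I and MDA5 that mostly handle the cell's own RNA, were named for 12 of 37 genes. In limma 0 probes passed an adjusted 0.05 in the 8 comparisons with control, against 10.6% of all probes in HFCSD in WB at 27 weeks and 0.0123 to 0.0366% in the other 7. Unadjusted, 2 of 19, 5 of 18, 0 of 18 and 0 of 20 were higher in HFCD in WB at 10, 19 and 27 weeks and in WBC, and 0 of 18, 6 of 18, 0 of 18 and 3 of 21 in HFCSD, with 0 lower. Of all probes 10.0, 12.5, 5.55 and 4.73% passed in HFCD and 1.73, 11.9, 32.2 and 11.3% in HFCSD. The largest statistics were those of DDX21 in WBC in HFCSD (0.86, 4 of 4 arrays above the control mean, adjusted p 0.281) and of EIF4A2 in WB at 19 weeks in HFCSD (1.49, 3 of 3 arrays, adjusted p 0.275; 0.51 within 1 scan day).

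Likeness of pattern was measured as Pearson's r over the 45 arrays between deviations from the mean of the arrays of the same sample type and week, among 1260 named genes with 1864 probes. The arrays are those compared above, so that the points share diets and control arrays, and r is a description. For DDX58 the genes most alike were LOC733579, annotated as TRIM5 (r 0.909, rho 0.898), USP18 (0.884, 0.838), ISG20 (0.831, 0.769), FCGR1A (0.817, 0.778) and PMAIP1 (0.807, 0.75). For IFIH1 they included LOC733579 (0.913, 0.876), USP18 (0.913, 0.862), FCGR1A (0.860, 0.83) and ISG20 (0.859, 0.826). For EIF2AK2 they were USP18 (0.917, 0.871), ISG20 (0.836, 0.807), LOC733579 (r 0.83, rho 0.733), MX1 (0.822, 0.835) and FCGR1A (0.805, 0.799). Among the sensors themselves, the probes most alike were DDX58_3964 and IFIH1_3012 by r (0.913, rho 0.894) and DDX58_3504 and DDX58_3964 by rho (0.898, r 0.888).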

How the data were processed

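Each of the 45 one-colour arrays held one sample. The deposited spot intensity values had been background-subtracted and detrended within the array by Feature Extraction (10.5.1.1 per the file headers), and the authors' series table held intensity values on a linear scale, quantile normalized in GeneSpring. The deposited flags, of another kind than measurements, told which spots were well above background. Outlier spots were left out, log2 intensity was quantile normalized over all arrays and spots of a probe were averaged. Probes well above background on every array of at least 1 group compared were tested with limma 3.58.1 in R 4.3.3 (data.table version 1.17.8), checked on simulated data, and p was adjusted by Benjamini-Hochberg over all probes tested. Diet groups of a week and sample type were fitted together, and other comparisons over all 45 arrays. Genes were named by RefSeq accession (2038 probes), gene name (691) or description (392), with symbols from the Sscrofa11.1 table. Members and lists were chosen with earlier results of these data known. Besides the sensors, genes were named by a fixed rule: of each list up to 6 genes with a probe past adjusted 0.05 in the most diet comparisons, or where none passed the 2 with the largest statistic, and the 5 genes most alike each sensor. A result that this rule picked is not reported here. Promoter motifs were not analysed here. Figures were drawn with Python 3.11.15, matplotlib 3.10.9 and numpy 2.4.6.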

Additional observations from a re-analysis of the deposited data

Results flagged for a closer look

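Within the 9 groups of 4 arrays, 54 sets of values of a probe were looked at for an array far from its group, as the gap to its nearest neighbour over the range of the group. At the level used, chance alone marks about 1 set in 20, and 3 were marked. IFIH1_539 in WBC HFCD at 27 weeks stood out in replicate 2 (8.84 beside 7.38 to 7.56 in the others, ratio 0.879). IFIH1_2130 in WB HFCSD at 10 weeks stood out in replicate 1 (4.13 beside 4.94 to 5.11, ratio 0.8296), an array on which this probe was not well above background. EIF2AK2_1839 in WBC HFCSD at 27 weeks stood out in replicate 3 (10.00 beside 9.61 to 9.62, ratio 0.962).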

How the results depend on the processing

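Of 698 values of the sensor probes under other settings, 666 kept their direction and side of the threshold, 25 gained a call and 7 changed sign. Of 467 values without 1 array, 440 kept both, 3 lost a call, 14 gained one and 10 changed sign. The cause was not tested.

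In the comparisons with control and of WBC with WB, the values of other sign were these. DDX58_3504 in HFCSD minus control in WB at 10 weeks was -0.0008 with normexp background correction. DDX58_3964 and EIF2AK2_1839 in HFCSD minus control in WB at 19 weeks were -0.42 and -0.20, both with scan day as a term and within 1 scan day. EIF2AK2_1839 in HFCSD minus control in WB at 27 weeks was -0.021 with the replicate block, and in WBC minus WB of the control diet 0.18 with the 75th percentile. Without 1 array, DDX58_3504 in HFCSD minus control ran from -0.023 to 0.59 in WB at 10 weeks and from -0.14 to 1.05 in WBC, DDX58_3964 from -0.14 to 0.81 in WB at 27 weeks, IFIH1_3012 from -0.089 to 0.59 in WBC, and EIF2AK2_1839 from -0.021 to 0.51 in WB at 27 weeks. EIF2AK2_1839 in WBC minus WB ran from -0.37 to 0.18 in control and from -0.12 to 0.39 in HFCD.

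The size of the differences also moved. With normexp background correction 37 of 62 were smaller by over 1.5 times and 0 larger, with the covariate named below 5 were smaller and 5 larger, with the replicate block 7 smaller, with the 75th percentile 2 smaller and 3 larger, and with scan day as a term 9 of 11 smaller. In HFCSD minus control in WB at 27 weeks DDX58_3504 ran from 0.23 (normexp) to 2.20 (covariate), IFIH1_539 from 0.47 to 2.09, and EIF2AK2_1839 from -0.021 (replicate block) to 1.03 (covariate). In HFCD minus control DDX58_3504 ran from 0.43 to 1.44 in WB at 27 weeks and from 0.60 to 1.77 in WBC. There IFIH1_2130 ran from 0.63 to 1.54 and from 0.56 to 1.48. The count of sensor probes past the threshold moved as follows. By the methods' t-test without adjustment it was 4, 2 and 2 in HFCD minus control in WB at 10, 19 and 27 weeks and 2 in HFCSD minus HFCD at 10 weeks (of all probes 1594, 1834, 1010 and 854), and 0 after Benjamini-Hochberg. For WBC minus WB in control (1 in the report) it was 3 with the 75th percentile, 2 with the replicate block and 0 to 5 without 1 array. In HFCD (0) it was 3 with the 75th percentile, 2 with normexp, 3 with the replicate block, 1 with each array's share of bright spots as a covariate, an alternative chosen after seeing the data, and 0 to 3 without 1 array. In HFCSD (0) it was 1, 2 and 2 with the 75th percentile, normexp and the replicate block, and 0 to 3 without 1 array. Over all probes the 75th percentile gave 9637, 10931 and 12086 calls in control, HFCD and HFCSD. The other settings together gave 7913 to 9637, 8581 to 10931 and 7798 to 13660 calls over all probes. Without 1 array there were 6986 to 8764, 6599 to 8786 and 8953 to 11444. In all other comparisons the count of sensor probes was 0 under every setting run.

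Replicate numbers did not dependably pair the samples. Of 64 same-numbered pairs of a diet between weeks or sample types, deviations had r from -0.52 to 0.60, 35 were over 0.1 and 30 were the best match. Between WB and WBC at 27 weeks their median was 0.35 in control, -0.38 in HFCD and 0.06 in HFCSD, and that of arrays of other numbers -0.14, -0.03 and -0.02. Of 43 pairs between diets 15 were over 0.1. Counts over all probes moved by more than 1.5 times in most diet comparisons, which had 0 to 7 calls apart from HFCSD minus control in WB at 27 weeks. There the count of 1824 was 453 without the filter on dim probes, 142 with the methods' t-test after Benjamini-Hochberg, 4706 without adjustment, 0 with the covariate, and 95 to 2833 without 1 array. In WB at 19 weeks the fit of all 45 arrays gave 530 calls in HFCD and 330 in HFCSD in place of 3 each. The fit within 1 scan day, with 1 control array, gave more than 3 in both, while scan day as a term gave 0 in HFCD.

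Signal over background limits the dimmer probes, since IFIH1_2130 was well above background on 38 of 45 arrays. Groups of 3 or 4 arrays leave wide intervals, and a p over the threshold does not show that levels were the same. RNA was measured in mixed blood cells, with no usable marker for neutrophils or red cells in the lists used, and protein or RNA binding was not measured. Sample type goes with kit and scan day, and week with age and scan day. Scan day as a term was fitted only at 19 weeks, where it rests on 1 control array.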
